A study of Mus musculus with 3 samples.

Results

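The genes that make, carry and destroy retinoic acid were read out in mesangial cells sorted from adult mouse kidney glomeruli. The set holds 9 genes, chosen by name: Aldh1a1, Aldh1a2 and Aldh1a3 for synthesis, Stra6 for uptake, Rbp4, Crabp1 and Crabp2 for binding, and Cyp26a1 and Cyp26b1 for breakdown. All 9 were measured, among 18686 named genes on the array outside the families used below as a reference for silent genes. The study profiled 3 samples of 1 group, each RNA from the cortex of 1 kidney of an adult male CD-1 mouse carrying Tg(Meis1-EGFP)FO156Gsat, a bacterial artificial chromosome in which Meis1 regulatory sequence drives green fluorescent protein. Sieved glomeruli were dissociated with trypsin and the fluorescent cells sorted, so the cells are those in which that transgene was active, and the labels name both glomerular and extraglomerular mesangium as their source. Whether 1 mouse gave more than 1 of the kidneys is not stated, so the spread between samples may in part be technical. No other cell population was profiled, so there was nothing to test between conditions.

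Retinoic acid is made from vitamin A in a pair of oxidation steps. Retinol, carried in blood by Rbp4 and taken into cells through Stra6, is first oxidised to retinal by retinol dehydrogenases and then irreversibly to retinoic acid by the Aldh1a enzymes. Inside the cell Crabp1 and Crabp2 bind retinoic acid, nuclear receptors of the RAR and RXR families carry its signal to DNA, and Cyp26 enzymes break it down. In the developing kidney, Aldh1a2 in the stroma is known for making the retinoic acid that branching of the ureteric bud requires.

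Retinoic acid receptors bind direct repeats of a short hexamer, and the breakdown gene Cyp26a1 and the receptor gene Rarb are textbook targets whose promoters carry such an element. Both promoters are shown because these genes read the signal that the set makes and removes, and their values are given below. The sequences are from RefSeq (GRCm38.p6), run from 250 bases before to 50 bases after the annotated start, and are written 5′ to 3′ on the strand of the gene. Capitals mark a direct repeat with a spacer of 5 bases, searched on both strands. Each unit of the repeat was allowed to be AGGTCA or, with a single base changed, AGTTCA or likewise GGGTCA, or with both of these bases changed GGTTCA, and the spacer was any 5 bases. The units within 1 repeat could differ.
Cyp26a1, chr19:37697558-37697857, plus strand: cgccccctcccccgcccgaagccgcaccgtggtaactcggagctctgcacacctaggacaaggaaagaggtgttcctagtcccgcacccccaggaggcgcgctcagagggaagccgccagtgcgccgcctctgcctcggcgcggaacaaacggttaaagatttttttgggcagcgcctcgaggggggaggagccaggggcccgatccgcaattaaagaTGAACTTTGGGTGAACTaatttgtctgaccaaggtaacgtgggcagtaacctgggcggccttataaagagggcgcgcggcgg
Rarb, chr14:16575427-16575726, minus strand: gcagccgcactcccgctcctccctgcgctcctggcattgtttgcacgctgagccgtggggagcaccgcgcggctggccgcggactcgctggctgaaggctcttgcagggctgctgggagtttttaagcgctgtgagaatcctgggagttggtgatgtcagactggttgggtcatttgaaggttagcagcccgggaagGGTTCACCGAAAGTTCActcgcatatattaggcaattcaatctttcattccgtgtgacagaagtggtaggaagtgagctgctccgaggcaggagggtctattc
The Cyp26a1 element lies 32 to 16 bases before the start and reads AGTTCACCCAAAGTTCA on the opposite strand. The Rarb element lies 53 to 37 bases before the start and reads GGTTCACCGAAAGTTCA on the strand of the gene. Of 32851 RefSeq promoters of this length, 32 (0.0974%) held such a repeat. The table matched 7 of the 9 genes, with 12 promoters, and not Aldh1a3 and Crabp2, and the Cyp26a1 promoter was the 1 of these that held it. The same hexamers with a spacer of 1 or 2 bases stood in 0.222% and 0.268% of all promoters and in none of these 12. A match is a description of the letters in this window only.

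All values are deposited log2 probe set signals, given for samples 1, 2 and 3 and as the mean ± SD over n = 3. A gene was called above background when it passed a threshold in every sample. The threshold was the 95th percentile of that sample's 1268 probe sets for keratin-associated proteins and for trace amine, vomeronasal and olfactory receptors. These families were assumed to be silent in kidney cells. Whether single genes of them are expressed there was not tested. These silent-gene thresholds were 7.48, 7.46 and 7.40. Probe sets differ in affinity, so each gene is set against the threshold and against itself in the other samples, and a higher value of another gene does not mean more of its RNA. Of the markers of the labelled cell type, 13 of 14 lay more than 1 above the threshold, with the integrin gene Itga8 at 12.94, 12.96 and 12.97. Tbx18, at 6.12 on each array, was not above it. The list was drawn up with earlier results of these data known, so the count is no independent support for cell identity. No list was made for pericytes or smooth muscle cells. Of other marker lists, hepatocyte genes passed in 1 of 8, macrophage genes in 3 of 9, proximal tubule genes in 5 of 12, later tubule genes in 8 of 11, podocyte genes in 5 of 8, parietal epithelial genes in 4 of 7, fibroblast genes in 6 of 9, endothelial genes in 9 of 10 and renin cell genes in 3 of 3, which were Gja5, Gja4 and Crip1, since the defining genes Ren1 and Akr1b7 are not analysed here. The numbers more than 1 above the threshold were 0 for the first 4 of these lists, then 2, 1, 4, 6 and 3. The endothelial list was split. Beside the 6 genes more than 1 above, Pecam1, Kdr and Cdh5 passed by only 0.07, 0.09 and 0.13 in their lowest sample. Of all named genes 58.0% passed and 32.7% passed by more than 1, so a list near these shares is no sign of its cell type. In sorted bulk RNA, few cells of another type and little RNA in every cell cannot be told apart.

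Of the 9 retinoid genes, 4 (44.4%) lay above the threshold in all 3 samples, against 58.0% of the named genes. They were Aldh1a2, Aldh1a3, Stra6 and Crabp1. More than 1 above it lay Aldh1a2 alone (11.1%, against 32.7% of named genes). Of the silent genes themselves, 4.71% passed the threshold and 0.958% passed it by more than 1. With 9 genes these shares are a description, and nothing particular to the set is read from them. The median of the 9 means was 7.47, and that of all named genes was 7.80.

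**Figure D1:**
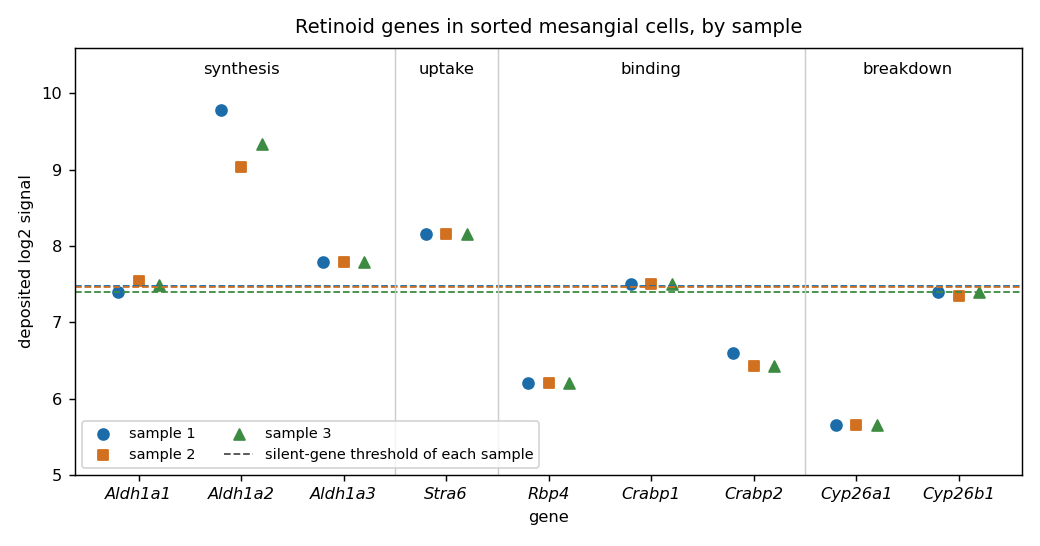
Deposited log2 signal (vertical axis) of the 9 retinoid genes, grouped by role, with 1 point per sample and each sample's silent-gene threshold as a dashed line. Aldh1a2 stands clear of the thresholds at 9.03 to 9.78, while Aldh1a1, Crabp1 and Cyp26b1 sit on or next to them.

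Among the 3 synthesis enzymes, Aldh1a2 was the one clearly above background. Its signal was 9.78, 9.03 and 9.33 (9.38 ± 0.38), which is 2.30, 1.56 and 1.93 above the thresholds. All 3 samples were high, and only 2, 7 and 5 of the 1268 silent probe sets reached its value on the same array. Aldh1a3, which makes retinoic acid in epithelia and sensory organs, had 7.79 on all 3 arrays, 0.31 to 0.38 above the thresholds. It passed everywhere by a small margin, with 97.2% to 97.3% of silent probe sets below it. Aldh1a1, the retinal dehydrogenase best known from the eye and liver, had 7.39, 7.54 and 7.49 (7.47 ± 0.07). Its value minus threshold was -0.09 in sample 1, and it passed by 0.07 and 0.08 in the others, so it lay at the threshold and was not called. Its nearest kin in the mouse, Aldh1a7, had 5.54, 5.62 and 5.62 and was not above the threshold, nor was Aldh8a1, an enzyme that oxidises 9-cis-retinal, at 5.98, 5.95 and 5.95.

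The uptake receptor gene Stra6 had 8.16 on all 3 arrays. It lay 0.68 to 0.76 above the thresholds, with 98.5% to 98.7% of silent probe sets below it, so it passed in each sample but by less than 1. Its relative Stra6l, a retinol-binding protein receptor known from liver and intestine, had 7.68 on each array, 0.20 to 0.27 above the thresholds. The gene for their ligand, the serum carrier Rbp4, had 6.20 on all 3 arrays and was not above the threshold (value minus threshold -1.28 to -1.21). Nor was Ttr, the gene of transthyretin, which holds Rbp4 in the circulation, at 6.36 on each array. Both are main products of hepatocytes, whose marker gene Alb, for albumin, was likewise not above the threshold at 6.18.

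The cellular binding proteins were at the threshold or under it. Crabp1, thought to hold retinoic acid in the cytoplasm, had 7.50 on all 3 arrays. It was called above background, but by margins of 0.02, 0.04 and 0.10, the narrowest among the 4 called genes. Crabp2, which delivers retinoic acid to its receptors in the nucleus, had 6.60, 6.42 and 6.42 (6.48 ± 0.10) and lay under the thresholds in all 3 samples (value minus threshold -0.88, -1.04 and -0.98). Fabp5, a fatty acid binding protein that can also carry retinoic acid, had 7.48, 7.38 and 7.38 and did not pass either. The cellular retinol-binding protein genes Rbp2 at 7.14, 7.14 and 7.10 and Rbp7 at 6.89 on each array were not above the threshold.

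No Cyp26 gene was called above background. Cyp26a1, the retinoic acid hydroxylase whose promoter element is shown above, had 5.65 on all 3 arrays. Its value minus threshold was -1.83 to -1.76, and 52.3% to 52.9% of silent probe sets lay below it, so it sat in the middle of the silent reference. Cyp26b1, the hydroxylase that shields developing germ cells and limbs from retinoic acid, had 7.40, 7.34 and 7.40 (7.38 ± 0.03) and came close to the thresholds without passing any (value minus threshold -0.08, -0.12 and -0.01). Cyp26c1, the remaining paralog, had 7.44 on each array and passed in sample 3 only, by 0.04. A signal at or under the threshold cannot be told from background by this rule and does not show that a transcript is absent.

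**Figure D2:**
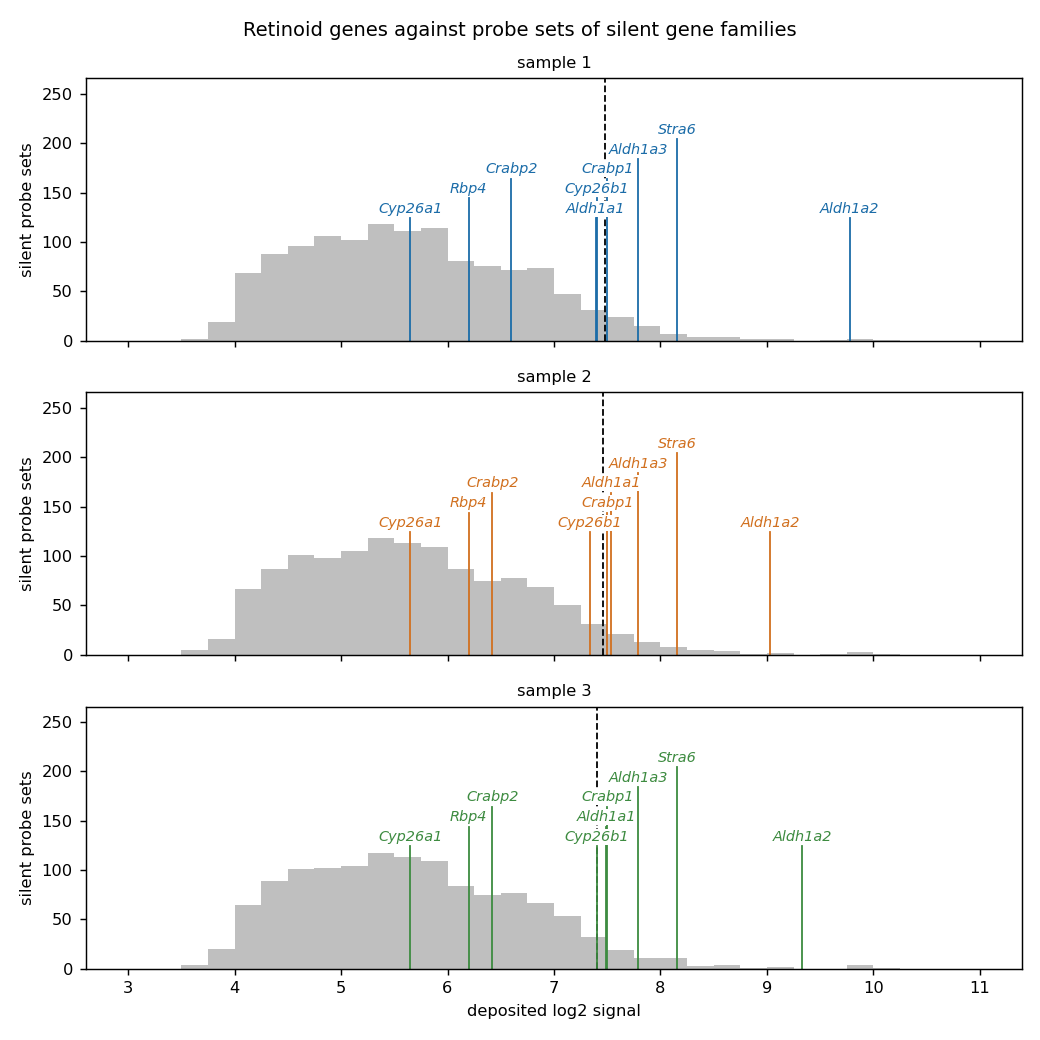
Number of silent-family probe sets per bin of 0.25 of deposited log2 signal (grey bars), 1 panel per sample, with the threshold as a dashed line and each retinoid gene as a coloured line whose height carries no value. Cyp26a1 at 5.65 falls in the bulk of the silent probe sets, and Aldh1a2 at 9.03 to 9.78 falls in their far upper tail.

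Aldh1a2 had the widest spread between samples among the 9 genes. Sample 1 exceeded sample 2 by 0.75 on the log2 scale (1.69-fold) and sample 3 by 0.45 (1.36-fold), and sample 3 exceeded sample 2 by 0.31 (1.24-fold). Sample 1 was thus highest and sample 2 lowest, with all 3 more than 1 above the threshold. Its SD of 0.38 was reached or passed by 176 of the 10833 named genes above the threshold (1.62%). Of those 10833 genes, 39.4% had a single value on all 3 arrays and 30.9% had only 2 different values. The 1.62% is therefore partly set by repeated values and is no measure of how unusual the spread is. Of the 9 retinoid genes, 5 had a single value on all 3 arrays, 2 had a value shared by a pair of arrays and 2 had 3 different values. Over all named genes 51.1% had a single value, so the set resembled the array in this. Such identical values mean that an SD of 0 is no measure of error here.

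**Figure D3:**
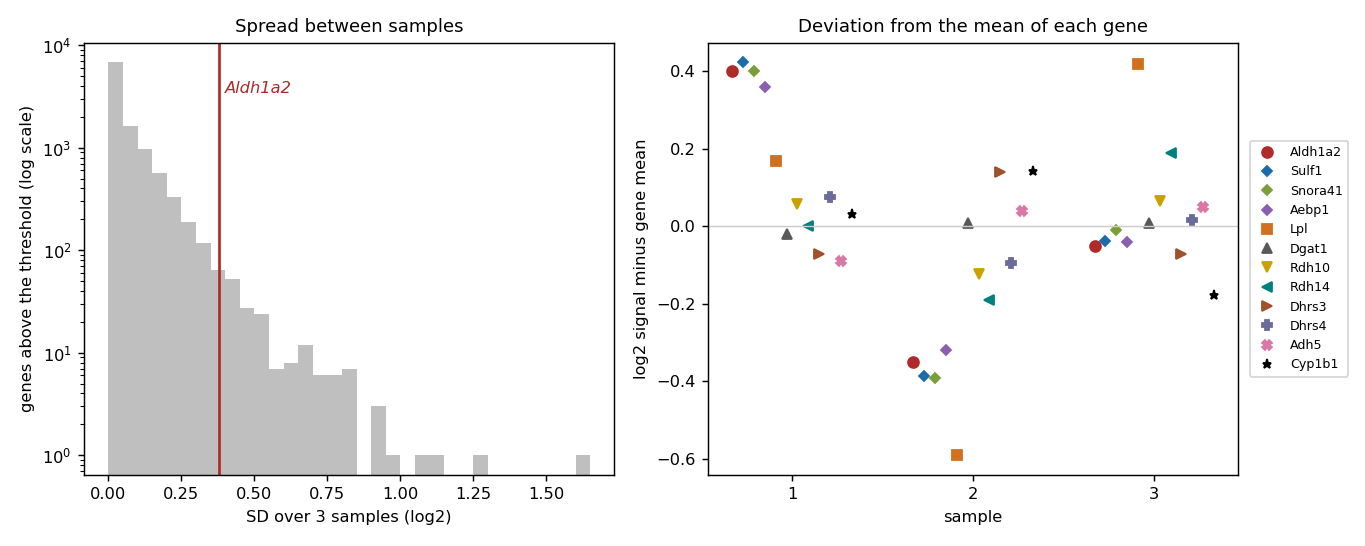
Left, number of named genes above the threshold (log scale) per bin of 0.05 of the SD over the 3 samples, with Aldh1a2 at 0.38 marked in red. Right, log2 signal minus the gene's own mean in each sample for Aldh1a2, the 3 genes with the most similar deviations, and the 8 other retinoid handling genes more than 1 above the threshold. Among these 8, Lpl is lowest in sample 2 (10.33), as are Rdh10, Rdh14 and Dhrs4, while Dhrs3 (11.79) and Cyp1b1 (8.95) are highest there.

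The 3 genes whose deviations over the samples were nearest to those of Aldh1a2 were Sulf1, which edits heparan sulfate (8.41, 7.60 and 7.95), the small nucleolar RNA gene Snora41 (8.26, 7.47 and 7.85) and Aebp1, for a collagen-binding matrix protein (10.53, 9.85 and 10.13). Likeness was the largest difference of the deviations in any of the 3 samples, which was 0.036, 0.037 and 0.040. Of the 10833 genes above the threshold, 22 came within 0.1 of the pattern, and with 3 samples such likeness is a description only. For each of the 10 marker lists, the median of its genes' deviations from their own means lay between -0.07 and 0.05 in every sample, and it was 0.00 in all 3 samples for the parietal epithelial, fibroblast, proximal tubule, macrophage and hepatocyte lists. Since many genes hold 1 value on all 3 arrays, such a median stays near 0 and cannot show whether some genes of a list moved. In the proximal tubule list Kap had 8.44, 8.51 and 7.17, and Miox had 7.40, 6.15 and 6.13. Single marker genes moved in differing ways. The parietal gene Cldn1 was lowest in sample 2 (7.69, 6.67 and 7.68), as was the podocyte gene Nes (8.77, 8.35 and 9.12), while the fibroblast gene Dcn was highest there (7.56, 8.21 and 7.76). The parietal gene Cd24a was lowest in sample 1 (11.65, 12.29 and 12.09), and the tubule gene Umod was lowest in sample 3 (9.51, 9.18 and 8.22). Calb1, a later tubule gene, was lowest in sample 1 (7.72, 8.66 and 8.49), and the endothelial gene Ehd3 in sample 2 (10.53, 10.14 and 10.58). The part of these cells in the Aldh1a2 differences was not tested.

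Upstream of the set, the enzymes that interconvert retinol and retinal divided. Of the 18 measured dehydrogenase genes of the Rdh, Dhrs and Adh families, 7 (38.9%) lay above the threshold, against 58.0% of named genes, and 5 (27.8%) more than 1 above it, against 32.7%. Rdh10, which supplies most embryonic retinal by oxidising retinol, had 9.40, 9.22 and 9.41 (9.34 ± 0.11). Dhrs3, which turns retinal back into retinol and is itself induced by retinoic acid, had 11.58, 11.79 and 11.58 (11.65 ± 0.12), at least 4.10 above the thresholds in every sample. Both were therefore measured well clear of background on all 3 arrays, each with a spread smaller than that of Aldh1a2. The broad-range retinal reductase gene Dhrs4 had 9.72, 9.55 and 9.66, Rdh14 had 9.01, 8.82 and 9.20, and Adh5, whose main substrate is a formaldehyde adduct, had 9.12, 9.25 and 9.26. The 2 genes above by less than 1 were Rdh5 at 7.82 and Rdh13 at 8.10, each the same on the 3 arrays.

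Of 16 measured uptake, carrier and storage genes, 5 (31.2%) passed the threshold, against 58.0% of named genes, and 2 (12.5%) passed it by more than 1, against 32.7%. Lpl, the lipoprotein lipase that lets cells take retinyl ester from chylomicrons, had 11.09, 10.33 and 11.34 (10.92 ± 0.53). It too was lowest in sample 2, although its highest value was in sample 3. Dgat1, which can esterify retinol, had 8.84, 8.87 and 8.87. Lrat, the main retinol esterifying enzyme and a mark of vitamin A storing stellate cells, had 6.62 on each array and was not above the threshold. The scavenger receptor gene Scarb1 at 8.27, Stra6l and the hormone-sensitive lipase gene Lipe at 7.72, 7.76 and 7.72 passed by less than 1. Beyond the Cyp26 family, Cyp1b1, a cytochrome P450 that can oxidise retinol and retinal, had 8.84, 8.95 and 8.63 (8.80 ± 0.16), more than 1 above the thresholds in all 3 samples.

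**Figure D4:**
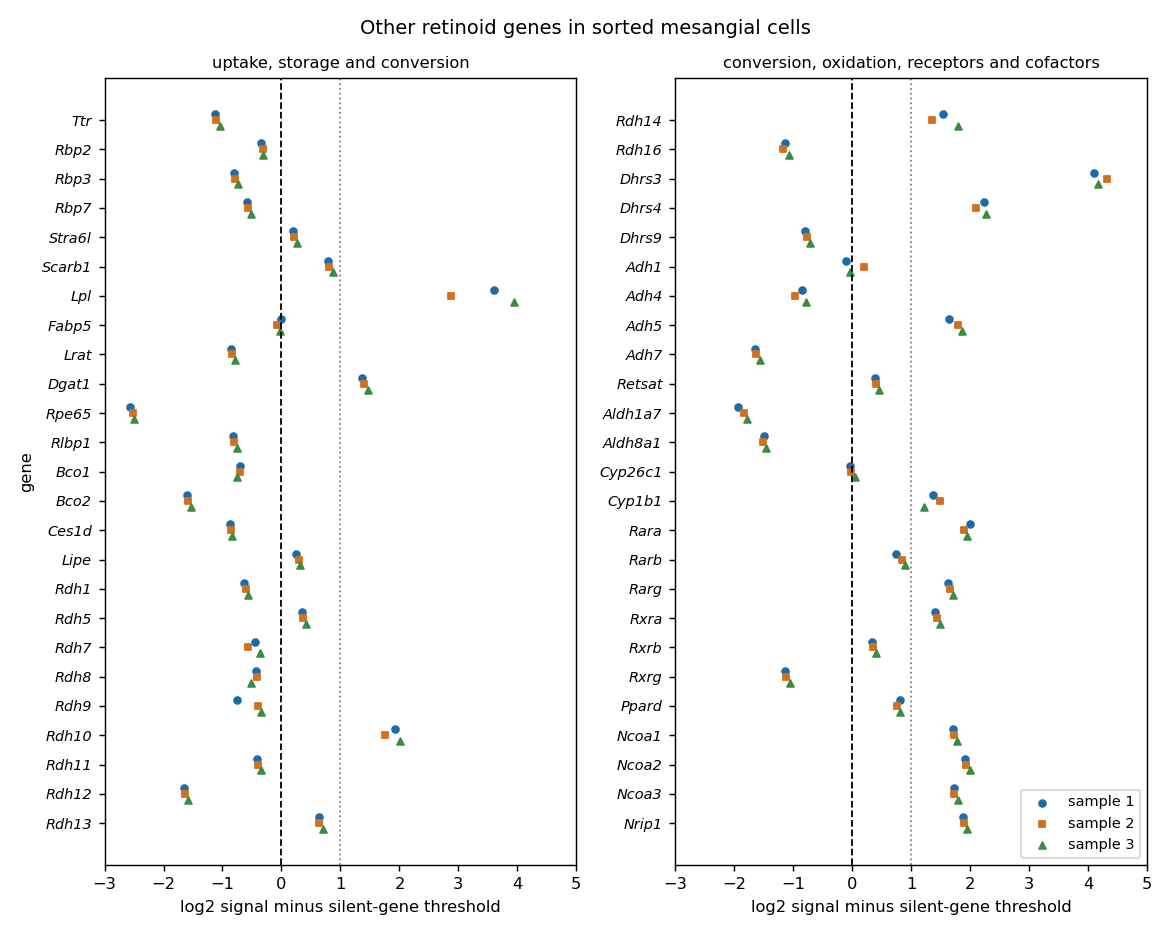
Log2 signal minus the silent-gene threshold of the sample (horizontal axis) for the 50 other measured retinoid handling, receptor and cofactor genes, with 1 point per sample; the dashed line is the threshold and the dotted line lies 1 above it. Of the 50 genes 24 (48%, against 58.0% of named genes) pass the threshold in all 3 samples. By more than 1 pass 15 (30%, against 32.7%), with Dhrs3 at least 4.10 above the threshold.

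Of the 6 RAR and RXR genes, 5 lay above the threshold in every sample and 3 more than 1 above it, where 58.0% and 32.7% of named genes did. Rara had 9.47, 9.36 and 9.36 (9.40 ± 0.07), Rarg had 9.11 and Rxra had 8.89, each of the latter the same on all 3 arrays, and these 3 passed by more than 1. Rarb, whose promoter element is shown above, had 8.22, 8.30 and 8.30 (8.27 ± 0.05), 0.74 to 0.89 above the thresholds. Rxrb at 7.82 passed by 0.34 to 0.41, and Rxrg, an RXR known from muscle and brain, at 6.34 was not above the threshold. Of 5 measured cofactor and partner genes all passed, with the coactivator genes Ncoa1, Ncoa2 and Ncoa3 at 9.19, 9.39 and 9.20 and the corepressor gene Nrip1 at 9.35, each the same on the 3 arrays. The receptor Ppard, which binds the ligands that Fabp5 carries, had 8.28, 8.21 and 8.21.

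Of 24 measured genes known to respond to retinoic acid, most by induction and Fgf8 mainly by repression, 17 (70.8%) lay above the threshold, against 58.0% of named genes, and 10 lay more than 1 above it (41.7%, against 32.7%). Their median mean was 8.23, beside 7.80 for all named genes. The chemerin gene Rarres2, named for its response to retinoids, had 12.51, 12.29 and 12.38 (12.40 ± 0.11), and Rai14 had 10.23, 10.01 and 10.42 (10.22 ± 0.20). The homeobox genes Hoxa4 at 8.64, Hoxa5 at 8.78, Hoxb4 at 9.46, 9.53 and 9.59 and Hoxb5 at 9.70, 9.68 and 9.68 were each more than 1 above the threshold, as were Meis1 at 9.33, 9.42 and 9.42 and Meis2 at 10.53, 10.62 and 10.49. Meis1 sequence drove the marker of the sort, so its level is no independent reading of retinoid signalling. Dhrs3 and Nrip1, given above, complete the 10. The other 7 targets that passed did so by less than 1 in their lowest sample. That margin ran from 0.05 for Tgm2, 0.08 for Cdx1 and 0.13 for Cebpe up to 0.97 for Egr1. The 7 targets not above the threshold were Lrat, Rarres1, Ret, Ucp1, Pdk4, Plaat3 and Dkk1. The list holds none of the 9 members, of which 4 (44.4%) passed, so its share does not cover them. The member Cyp26a1, which retinoic acid is known to induce in many cells, was not above the threshold. Nor were the members Crabp2 and Cyp26b1, while Stra6 passed by less than 1. These genes also answer to other signals, and the list has no untreated control here.

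**Figure D5:**
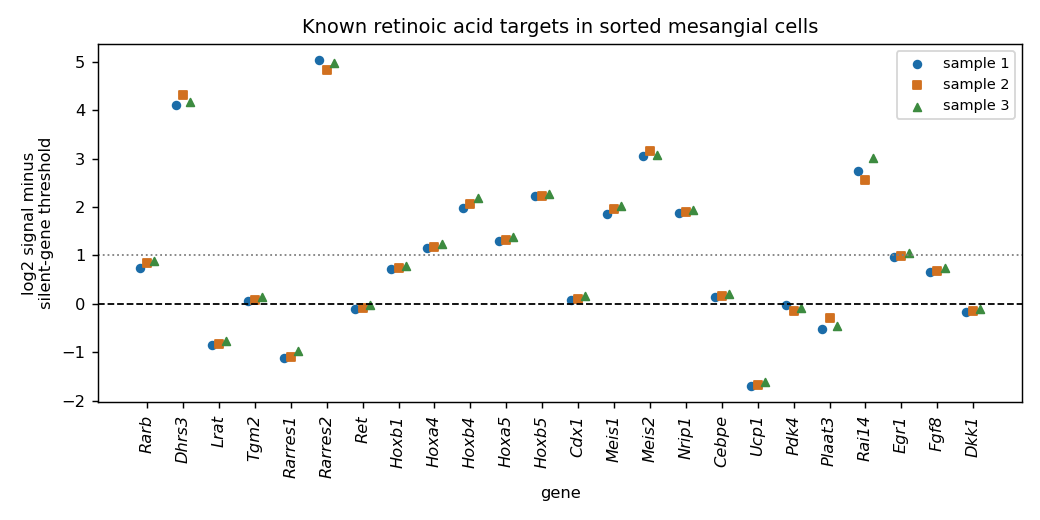
Log2 signal minus the silent-gene threshold of the sample (vertical axis) for the 24 measured retinoic acid targets, with 1 point per sample; the dashed line is the threshold and the dotted line lies 1 above it. Rarres2 and Dhrs3 lie at least 4.83 and 4.10 above the threshold, and 7 genes do not pass it in all 3 samples.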

How the data were processed

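RNA of 3 samples was amplified once with WT-Ovation Pico, labelled with biotin and hybridised to Affymetrix arrays, per the labels' protocols. The authors deposited log2 probe set signals. The submitters' processing notes name Affymetrix Expression Console. Its version, background correction and summary method are not stated there, and the log base was inferred from the highest value of 14.39. The array medians were 7.53, 7.56 and 7.54, and centring beyond this is unknown. Of 35557 probe sets, 14310 (40.2%) had 1 value, equal to the last deposited decimal, on all 3 arrays. The number of arrays limits the precision.

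The platform annotation gave 21789 probe sets exactly 1 symbol, 1621 several, and did not list 12147. Symbols were updated by Entrez number with RefSeq genes of GRCm38.p6 (21698 matched). Each of the 9 genes had 1 probe set; other genes took the probe set with the highest mean. Values were used as deposited, with thresholds, counts and motif searches computed in Python 3.11.15 with pandas 2.3.3 and checked on simulated data. The genes named are the 9 members, the RAR and RXR genes, listed retinoid genes more than 1 above the threshold, near kin of members, and genes nearest in pattern to a called member with a range over 0.3. Other genes of the lists were chosen after their values were seen. So were the marker genes Tbx18, Pecam1, Kdr and Cdh5 and those named beside Aldh1a2. The members and lists were chosen with earlier results of these data known. Alternatives covered the percentile, the reference families, the arrays required, the probe set rule, scaling, symbols and each sample left out. Without a second group no test was made.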

Additional observations from a re-analysis of the deposited data

How the results depend on the processing

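In the 10 alternatives other than the shift to 1 median, Aldh1a2 stayed above the threshold and Rbp4, Crabp2 and Cyp26a1 stayed under it. Most of these could not have removed the Aldh1a2 call. A lower percentile, the mean of the arrays and a left-out sample only relax the rule, and each of the 9 genes has 1 probe set. At the stricter settings, the 99th percentile and the threshold raised by 1, its lowest value minus threshold was 0.67 and 0.56. Those settings could not lift Rbp4, Crabp2 or Cyp26a1, which had -0.88, -0.66 and -1.43 at the 90th percentile. The other calls lay close to the threshold. At the 99th percentile of the silent probe sets 1 of the 9 genes passed, with 15 of the 50 other retinoid genes and 11 of the 24 targets, against 35.3% of named genes. The lowest value minus threshold was then -0.57 for Aldh1a3, -0.86 for Crabp1 and -0.20 for Stra6. With the threshold raised by 1 the numbers were 1, 15 and 10, against 32.7% of named genes, and these 3 genes had -0.69, -0.98 and -0.32. At the 90th percentile 6 of the 9 passed, against 68.8% of named genes, since Aldh1a1 (0.32) and Cyp26b1 (0.27) were then above. Aldh1a1 was also above in the mean of the 3 arrays (0.02) and without sample 1 (0.07), against -0.09 without sample 2. Leaving out each sample in turn gave 4 to 5 of the 9 genes, against 58.2% to 58.9% of named genes. It gave 24 of the 50 in each case and 17 of the 24 in each case. The median was then 7.44 to 7.50, and 5 to 6 genes had a single value. Without sample 1, the range of Aldh1a2 was 0.31 in place of 0.75, and without sample 2 it was 0.45. Shifting the arrays to 1 median, by at most 0.02, moves each threshold with its values and so cannot change a call. It left 0 genes in place of 5 with a single value, which follows from the shift itself. No paired analysis was possible because there is only 1 group.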

Other observations

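Adh1, a class I alcohol dehydrogenase that oxidises retinol, had 7.37, 7.66 and 7.37 in samples 1, 2 and 3 and passed the threshold in sample 2 only, by 0.20. Rdh9, of the retinol dehydrogenase cluster, had 6.72, 7.06 and 7.06 and passed in none. Both were chosen after their values were seen.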
